A study of Mus musculus with 4 samples.

Results

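Muscle contractile and sarcomere genes are the genes for actins, myosins, tropomyosins, troponins, the proteins that anchor and cross-link them, and the coactivator Myocd. The set held 44 genes chosen by name: 15 typical of smooth muscle, 13 shared between muscle types, 8 cardiac and 8 skeletal. Of these, 39 averaged 10 or more normalized counts across the 4 libraries and were tested, among 15809 such genes of 55397 listed. They were measured by bulk RNA-seq in primary mouse embryonic fibroblasts (MEFs) taken at embryonic day 13.5 from C57BL/6J embryos with loxP-flanked Prox1 alleles, genotype Prox1(fl/fl), in every library. All cultures received the 4in1 lentivirus, which drives fibroblasts toward induced hepatocytes, and were harvested on day 14 of reprogramming. The 2 libraries called Prox1 KO here also received lentivirus for Cre recombinase with GFP, and the 2 controls received the non-functional dCre with GFP. The sample titles read creGFP and dcreGFP, and "Prox1 KO-labelled" below is the group name used here for the creGFP libraries. The libraries are of whole cultures, and the labels name no selection of transduced cells.

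In muscle cells, myosin thick filaments pull on actin thin filaments, and tropomyosin and troponin, or caldesmon and calponin in smooth muscle, sit on the actin. Cardiac and skeletal muscle order these filaments into sarcomeres held at Z-discs, while smooth muscle uses its own actin and myosin genes without sarcomeres. Fibroblasts turn on part of the smooth muscle set when they become myofibroblasts, and serum response factor, which binds a short AT-rich promoter element called the CArG box, drives many of these genes together with MYOCD or the MRTF coactivators.

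Each library held between 42469031 and 48524008 reads on genes. Prox1, the targeted gene, had 72.7 and 61.6 normalized counts in the Prox1 KO-labelled libraries and 60.6 and 25.5 in the controls. Its count was thus not lower in the libraries that received active Cre (log2 fold change 0.75, SE 0.27, limma adjusted p = 0.0936). Counts over the whole gene do not show whether the loxP-flanked part was removed, and every direction below rests on the labels. The fibroblast markers summed to 903219 to 1069308 normalized counts in the Prox1 KO-labelled libraries and 964328 to 1143502 in the controls, and all 8 of them were detected. Libraries with the same replicate number were compared as a pair, and their deviations from the group means correlated at 0.402 over 15809 genes.

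Of the smooth muscle members 8 of 15, of the shared members 5 of 13 and of the cardiac members 2 of 5 tested were higher in the Prox1 KO-labelled libraries, and 0 of 6 skeletal members were. The 2 cardiac members were Hspb7, a gene of heart and skeletal muscle counted here as cardiac, and Nebl, which DESeq2 did not call. In all, of the 39 members tested, 15 rose and 0 fell (38.5% higher), where 5.09% of all genes tested rose and 6.29% fell. The members were chosen with earlier results of these data known, so this share is a description. It is also not matched for level: of the 21 members above 1000 normalized counts 13 rose, where 8.64% of all genes at that level did. Among the 15 that rose, the highest fold changes were those of Actg2 and Myh11, the smooth muscle gamma actin and myosin heavy chain. The other 13 rises lay between 0.19 and 0.53 on the log2 scale. The median log2 fold change of the 39 was 0.25, against -0.0022 over all genes tested. Within replicate 1 the members' median difference was 0.26 and within replicate 2 it was 0.18. Of the 39 members 27 were above 0 in both pairs, 4 below 0 in both and 8 opposite. Among all 15809 genes tested these counts were 5140, 5266 and 5403. For 22 members both Prox1 KO-labelled libraries lay above both controls and for 2 both lay below, which 21.8% and 22.6% of all genes tested did. In these bulk samples more cells of a muscle-like type and more RNA per cell cannot be told apart. The calls need the replicate number as a block: without it limma called 0 members and 0 of all genes tested. In that limma fit 14 members had an unadjusted p under 0.05, and the members' lowest adjusted p was 0.118. DESeq2 with the block called 10 of the 15, where it called 1.4% of all genes higher and gave 7 members no adjusted p.

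**Figure D1:**
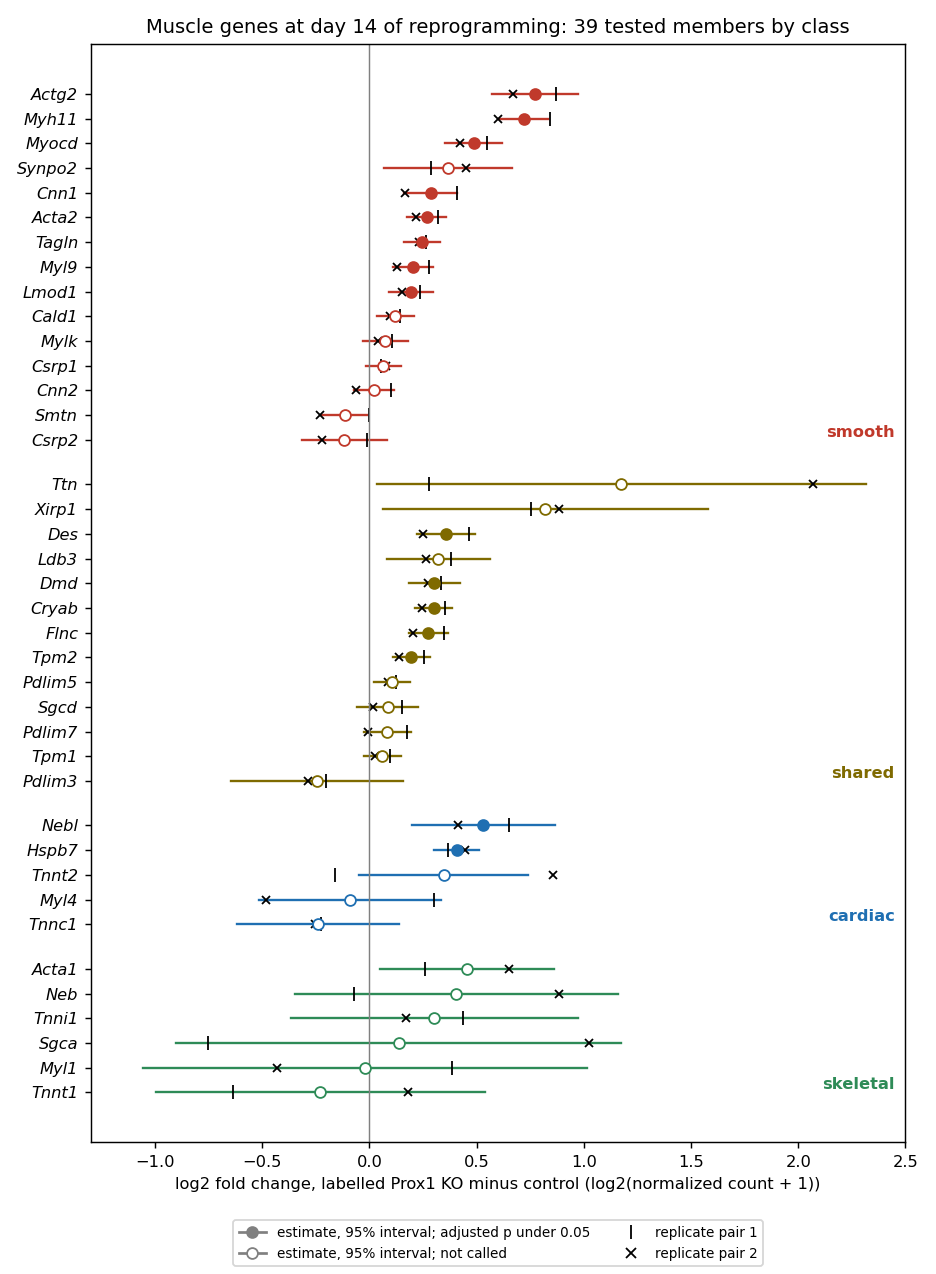
Log2 fold change (Prox1 KO-labelled libraries over control) of the 39 tested members with the 95% interval from limma, by muscle class, and the difference within each replicate pair. The 15 members with an adjusted p under 0.05 all lie to the right of 0, between 0.19 and 0.77, and the widest intervals are those of Ttn, Sgca and Myl1.

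Promoter sequence was available from RefSeq (GRCm38.p6) for 35 of the 44 members, as 250 bases before and 50 after each annotated start. A CArG box was counted only as an exact 10-base match of CC, then only A or T, then GG. Near matches were left out: the window of Acta2 holds ccctatatgg and ccttgtttgg and was scored as having no box. An exact box on either strand was found in a window of 7 of the 35 genes (20%), and of 488 of all 27025 genes (1.81%). Of the 10 members that rose and had a window, 3 held a box (Myl9, Dmd and Nebl). By window, 3 of their 15 windows held one (20%), against 1.63% of all windows. Dmd and Nebl also had windows at other starts without a box, and the Nebl box lies at a start inside the gene. Counts per gene do not show which start was used. Actg2, Myh11, Myocd, Tagln and Cryab rose but had no window. Of the 21 tested members with a window that did not rise, 3 held a box (Cnn2, Ldb3 and Acta1). The last of the 7 is Actc1, which was not tested. A MEF2 site was found for 3 of the 35 genes (8.57%), against 3.70% of all genes, and none overlapped a box printed here. The 50-base stretches around the 7 boxes are shown because this is the sequence element known for regulating the family, and the box is in capitals. They lie at Myl9 chr2:156775283-156775332 (plus strand), Cnn2 chr10:79988524-79988573 (plus strand), Dmd chrX:82948752-82948801 (plus strand), Ldb3 chr14:34588687-34588736 (minus strand), Nebl chr2:17462989-17463038 (minus strand), Actc1 chr2:114052893-114052942 (minus strand), Acta1 chr8:123894819-123894868 (minus strand).

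The stretches read, 5′ to 3′ on the strand of the gene:
Myl9: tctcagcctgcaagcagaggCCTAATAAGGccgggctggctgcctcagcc
Cnn2: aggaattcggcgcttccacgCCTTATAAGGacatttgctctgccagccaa
Dmd: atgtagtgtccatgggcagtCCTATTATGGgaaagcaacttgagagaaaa
Ldb3: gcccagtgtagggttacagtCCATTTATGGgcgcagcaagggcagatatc
Nebl: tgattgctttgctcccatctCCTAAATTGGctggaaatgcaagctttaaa
Actc1: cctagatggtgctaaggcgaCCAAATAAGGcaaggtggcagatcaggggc
Acta1: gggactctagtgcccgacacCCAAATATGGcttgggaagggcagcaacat

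A match in these letters is a description of the window, and its absence says nothing of the factor. Of the 7 genes, Myl9, Dmd and Nebl rose by 0.20, 0.30 and 0.53 on the log2 scale, while Acta1, Ldb3 and Cnn2 had 0.46, 0.32 and 0.02 and did not pass.

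The smooth muscle class had 8 of its 15 members higher, 0 lower, and a median log2 fold change of 0.20. Myh11 (ENSMUSG00000018830, chr16:14194535-14291372, mouse build GRCm38), the heavy chain of the smooth muscle thick filament, had 5278 and 4745 normalized counts in the Prox1 KO-labelled libraries and 2945 and 3136 in the controls. Both Prox1 KO-labelled libraries lay above both controls, by 1.65-fold (5011 ± 377 against 3040.5 ± 135 with SDs for n = 2 each, log2 fold change 0.72, SE 0.05, limma adjusted p = 8.26e-07). Actg2 (ENSMUSG00000059430, chr6:83512905-83536265), the gamma actin of visceral smooth muscle, had 569 and 602 normalized counts in the Prox1 KO-labelled libraries and 311 and 378 in the controls. It was 1.71-fold higher, with no overlap between the groups (586 ± 23.1 against 345 ± 47.2 with SDs for n = 2 each, log2 fold change 0.77, SE 0.09, limma adjusted p = 7.01e-05). Myocd (ENSMUSG00000020542, chr11:65176561-65269989), the coactivator that serum response factor recruits in smooth and cardiac muscle, had 1613 and 1271 normalized counts in the Prox1 KO-labelled libraries and 1103 and 947 in the controls. The groups did not overlap and Myocd rose 1.40-fold (1442 ± 242 against 1025 ± 109.7 with SDs for n = 2 each, log2 fold change 0.49, SE 0.06, limma adjusted p = 0.000108), with the replicate 2 library below the replicate 1 library in both groups.

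Acta2, Tagln and Cnn1 rose by less than these 3 genes. Acta2 (ENSMUSG00000035783, chr19:34241090-34255590), the alpha actin that marks smooth muscle cells and myofibroblasts, had 54786 and 50364 normalized counts in the Prox1 KO-labelled libraries and 43934 and 43363 in the controls. It rose 1.20-fold, and its groups stood apart (52575 ± 3127 against 43649 ± 404 with SDs for n = 2 each, log2 fold change 0.27, SE 0.04, limma adjusted p = 0.000783). Tagln (ENSMUSG00000032085, chr9:45929619-45936058), transgelin, an actin-binding protein of smooth muscle, had 29823 and 27231 normalized counts in the Prox1 KO-labelled libraries and 24868 and 23204 in the controls (28527 ± 1833 against 24036 ± 1177 with SDs for n = 2 each). Tagln rose 1.19-fold (log2 fold change 0.25, SE 0.04, limma adjusted p = 0.000736); 33.2% of its 100-base windows are shared with Gm48529 and Pcsk7, which lie on the other strand, and Pcsk7 itself had a log2 fold change of 0.02. Cnn1 (ENSMUSG00000001349, chr9:22099216-22109630), calponin 1, which restrains myosin on actin, had 2586 and 2399.7 normalized counts in the Prox1 KO-labelled libraries and 1949 and 2142 in the controls and rose 1.22-fold (2493 ± 131 against 2045 ± 136 with SDs for n = 2 each, log2 fold change 0.29, SE 0.06, limma adjusted p = 0.00452). DESeq2 did not call Cnn1 (adjusted p = 0.0794).

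Myl9, a regulatory light chain of smooth muscle and non-muscle myosin, and Lmod1, leiomodin 1, which nucleates actin filaments, were the lowest rises of the class. Myl9 (ENSMUSG00000067818, chr2:156775420-156781658), whose CArG box is printed above, had 9992 and 8949.9 normalized counts in the Prox1 KO-labelled libraries and 8242 and 8188 in the controls and rose 1.15-fold (9471 ± 737 against 8215 ± 38.1 with SDs for n = 2 each, log2 fold change 0.20, SE 0.04, limma adjusted p = 0.00670). Lmod1 (ENSMUSG00000048096, chr1:135324807-135368065) had 3151 and 2966 normalized counts in the Prox1 KO-labelled libraries and 2675 and 2673 in the controls and rose 1.14-fold (3058 ± 131 against 2674 ± 1.51 with SDs for n = 2 each, log2 fold change 0.19, SE 0.05, limma adjusted p = 0.0155), which DESeq2 did not call (adjusted p = 0.272). In both genes the 2 controls were close together and below the Prox1 KO-labelled libraries. The other 7 smooth muscle members did not pass. They were Synpo2, a Z-disc and actin-bundling protein, at 0.37, the caldesmon Cald1 at 0.12, the myosin light chain kinase Mylk at 0.07, the LIM proteins Csrp1 at 0.06 and Csrp2 at -0.12, the calponin Cnn2 at 0.02 and the smoothelin Smtn at -0.11, which limma called lower only after a GC and length correction (adjusted p = 0.0328). Cald1 was the nearest to the threshold of these in limma (adjusted p = 0.0751), with 51409.8 and 47514 against 46522 and 44416 normalized counts.

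Among the 13 members shared between muscle types, 5 rose, 0 fell and the median log2 fold change was 0.27. Des (ENSMUSG00000026208, chr1:75360329-75368579), desmin, the intermediate filament of muscle, had 1553 and 1560.1 normalized counts in the Prox1 KO-labelled libraries and 1125 and 1311 in the controls. Desmin's groups did not overlap and it rose (1556 ± 5.32 against 1218 ± 132 with SDs for n = 2 each, log2 fold change 0.36, SE 0.06, limma adjusted p = 0.00167); DESeq2 gave an adjusted p of 0.0507. Cryab (ENSMUSG00000032060, chr9:50751325-50756636), a small heat shock protein that protects desmin and the Z-disc, had 23575 and 21109 normalized counts in the Prox1 KO-labelled libraries and 18448 and 17823 in the controls and was 1.23-fold higher (22342 ± 1744 against 18136 ± 442 with SDs for n = 2 each, log2 fold change 0.30, SE 0.04, limma adjusted p = 0.000235). Of its 100-base windows 15.03% are shared with the antisense Hspb2, whose log2 fold change was 0.32 (limma adjusted p = 0.271). Flnc (ENSMUSG00000068699, chr6:29433256-29461883), filamin C, which cross-links actin at the Z-disc, had 36542 and 31848 normalized counts in the Prox1 KO-labelled libraries and 28743 and 27659.8 in the controls and was 1.21-fold higher (34195 ± 3319.6 against 28201 ± 766 with SDs for n = 2 each, log2 fold change 0.27, SE 0.04, limma adjusted p = 0.000702). Both Cryab and Flnc had the Prox1 KO-labelled libraries above the controls.

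Dmd (ENSMUSG00000045103, chrX:82948870-85206141), dystrophin, which ties actin to the membrane complex and also has a CArG box printed above, had 1862 and 1573 normalized counts in the Prox1 KO-labelled libraries and 1478 and 1303 in the controls and rose 1.23-fold (1718 ± 205 against 1390.5 ± 124 with SDs for n = 2 each, log2 fold change 0.30, SE 0.06, limma adjusted p = 0.00219), uncalled by DESeq2 (adjusted p = 0.0905). Tpm2 (ENSMUSG00000028464, chr4:43514711-43523765), beta tropomyosin, had 17383 and 15767 normalized counts in the Prox1 KO-labelled libraries and 14566 and 14344 in the controls and rose 1.15-fold (16575 ± 1142 against 14455 ± 157 with SDs for n = 2 each, log2 fold change 0.20, SE 0.04, limma adjusted p = 0.00597). Neither gene overlapped between groups. Tpm1, the alpha tropomyosin, had 30625 and 28201 against 28696 and 27718 normalized counts and a log2 fold change of 0.06 (limma adjusted p = 0.409). The largest fitted differences among the members that missed the threshold belonged to genes with few counts. Ttn, titin, the spring of the sarcomere, had 12.5 and 16.6 against 10.1 and 3.19 and a log2 fold change of 1.18 with a 95% interval of 0.03 to 2.32 (limma adjusted p = 0.195). Xirp1, which binds actin at intercalated discs and Z-discs, had 30.1 and 24.4 against 17.4 and 12.8 and 0.82 with an interval of 0.06 to 1.58 (limma adjusted p = 0.170). Of the remaining shared members, the Z-disc protein Ldb3 was at 0.32 (limma adjusted p = 0.0807), the PDZ-LIM proteins Pdlim5, Pdlim7 and Pdlim3 at 0.11, 0.08 and -0.24, and the sarcoglycan Sgcd at 0.08.

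**Figure D2:**
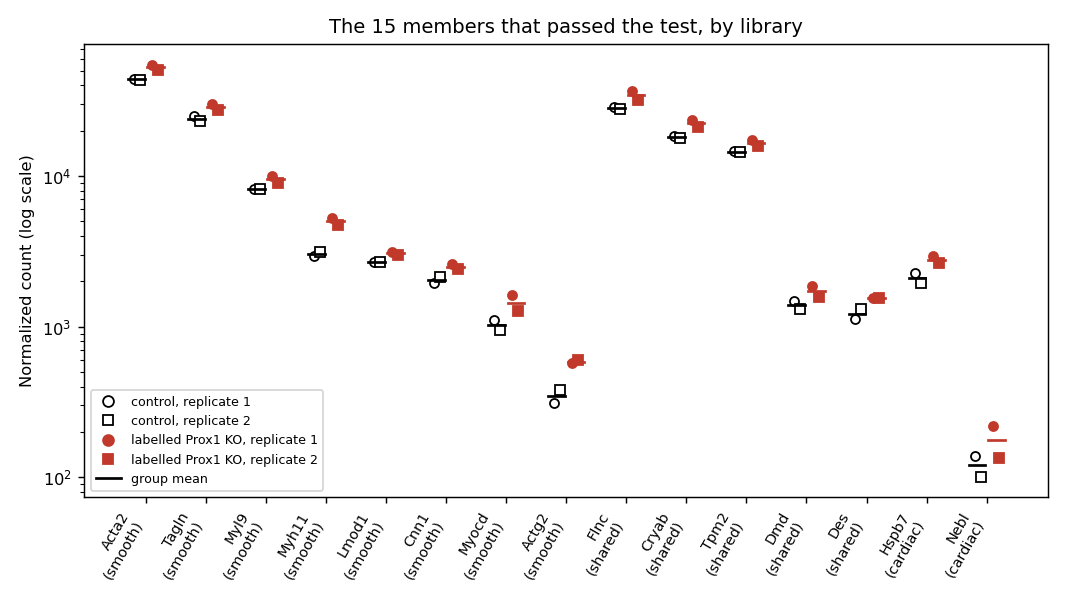
Normalized counts of the 15 members that rose, 1 point per library (circles replicate 1, squares replicate 2, open control, filled labelled Prox1 KO) with a bar at each group's mean, on a log axis. For 14 of the 15 genes both Prox1 KO-labelled libraries lie above both controls; Nebl is the exception.

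The cardiac class had 2 of its 5 tested members higher, Hspb7 and Nebl, and 0 lower. Hspb7 (ENSMUSG00000006221, chr4:141420779-141425311), a small heat shock protein of heart and skeletal muscle, had 2926 and 2645 normalized counts in the Prox1 KO-labelled libraries and 2268 and 1939.5 in the controls. Its groups did not overlap and it rose 1.33-fold (2786 ± 199 against 2104 ± 233 with SDs for n = 2 each, log2 fold change 0.41, SE 0.05, limma adjusted p = 6.68e-05). Nebl (ENSMUSG00000053702, chr2:17343909-17731464), nebulette, a nebulin-related actin-binding protein of the cardiac Z-disc, had 218 and 135 normalized counts in the Prox1 KO-labelled libraries and 139 and 101 in the controls. Its groups overlapped, since the second library labelled Prox1 KO lay below the first control, and the call came from the differences within pairs, 0.65 and 0.41 on the log2 scale (177 ± 58.9 against 119.9 ± 26.5 with SDs for n = 2 each, log2 fold change 0.53, SE 0.16, limma adjusted p = 0.0384). Nebl was not called by DESeq2 (adjusted p = 0.597) or by limma after a GC and length correction (adjusted p = 0.0520). The cardiac troponin genes did not pass: Tnnt2, which holds the troponin complex on tropomyosin, had 282 and 178 against 315 and 97.9 normalized counts and a log2 fold change of 0.35 (95% interval -0.05 to 0.74), and the calcium-binding Tnnc1 had -0.24. The atrial and embryonic light chain Myl4 was at -0.09. Cardiac actin and the cardiac myosin heavy chains were near 0 in every library, with reads for Actc1 of 1 and 4 against 2 and 0, for Myh6 of 1 and 0 against 0 and 0 and for Myh7 of 3 and 3 against 3 and 4, and were not tested. Those 3 genes lay at most 1 read above the floor of 3 counts per library.

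None of the 6 skeletal members tested passed limma or edgeR at this depth, with 1 (Acta1) at an unadjusted p under 0.05 in limma. DESeq2 gave an adjusted p only to Acta1 (0.898), so it could not call the other skeletal members. Acta1 (ENSMUSG00000031972, chr8:123891769-123894751), skeletal alpha actin, was the most expressed of them, with 109 and 112 normalized counts in the Prox1 KO-labelled libraries and 90.9 and 71.3 in the controls. Both Prox1 KO-labelled libraries lay above both controls, but the 95% interval of the log2 fold change of 0.46 ran from 0.05 to 0.86 and the limma adjusted p was 0.154. The thin filament ruler Neb was at 0.41, the slow troponins Tnni1 and Tnnt1 at 0.30 and -0.23, the fast light chain Myl1 at -0.02 and the sarcoglycan Sgca at 0.14. Their SEs were 0.19 to 0.49 on the log2 scale, against 0.04 to 0.14 in the smooth muscle class, and the 95% bounds of the 6 genes spread from -1.06 to 1.17. A change of 0.20, the median of the smooth muscle class, lies within the interval of each of the 6 and was not detectable in them at this depth. The embryonic myosin Myh3 had reads of 1 and 2 against 0 and 0 and the fast troponin Tnnt3 7 and 9 against 13 and 11, and neither was tested.

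More of the highly expressed members passed than of the weakly expressed ones. Of the 21 members above 1000 normalized counts 13 rose (61.9%), against 8.64% of all genes at that level. Between 100 and 1000 normalized counts 2 of 9 members rose (22.2%), against 3.43% of all genes. Between 10 and 100 normalized counts 0 of 9 members passed, with 0 lower, against 0.659% of all genes, and the members' median SE there was 0.356 compared with 0.0439 in the most expressed group. Per kilobase of exon, which allows levels to be set side by side between genes, the controls held 19876 normalized counts of Acta2, 12262 of Cryab, 12091 of Tagln, 9048 of Csrp1, 8038 of Cnn2 and 7069.7 of Myl9, the 6 highest members, of which Csrp1 and Cnn2 did not pass the test. The class medians per kilobase were 748 for smooth muscle, 324 for shared, 26.6 for cardiac and 6.95 for skeletal genes, where all genes tested had 168. Per kilobase, smooth muscle actin stood far above Acta1 (52.8 per kilobase) and above Actg2 (221) in these cultures. The members took 0.695% to 0.770% of reads in the Prox1 KO-labelled libraries and 0.630% to 0.659% in the controls.

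**Figure D3:**
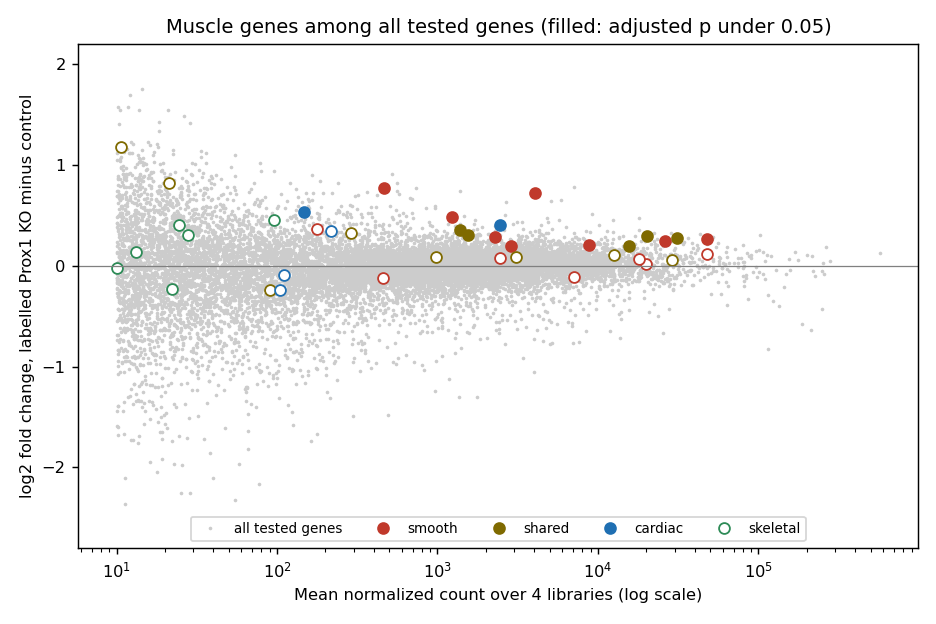
Log2 fold change against mean normalized count over the 4 libraries (log axis) for all 15809 tested genes (grey) and the 39 members by class, filled where the adjusted p is under 0.05. Of the 21 members above 1000 normalized counts 13 are filled, and the 9 members below 100 are all open.

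The replicate number moved a few members too, so that the label is not the only axis along which they differ. Of the 39 members 6 differed between replicate numbers and all 6 were lower in replicate 2, where 7.88% of all genes tested differed, 4.39% higher and 3.49% lower. Tnnt2 had the largest difference, -1.17 (limma adjusted p = 0.000730). Nebl, Myocd, Dmd and Hspb7, which rose by label, differed by -0.57 (limma adjusted p = 0.0341), -0.28 (limma adjusted p = 0.00951), -0.21 (limma adjusted p = 0.0265) and -0.19 (limma adjusted p = 0.0291). Pdlim5, which did not rise, differed by -0.25 (limma adjusted p = 0.000666). The rise by label was larger in the first pair for 14 of the 15 members that rose (93.3%), with medians of 0.35 and 0.24, and Hspb7 was the exception. Among all 804 genes that rose, 64.4% were larger in the first pair. With 1 library for each group in a pair this difference was not tested.

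**Figure D4:**
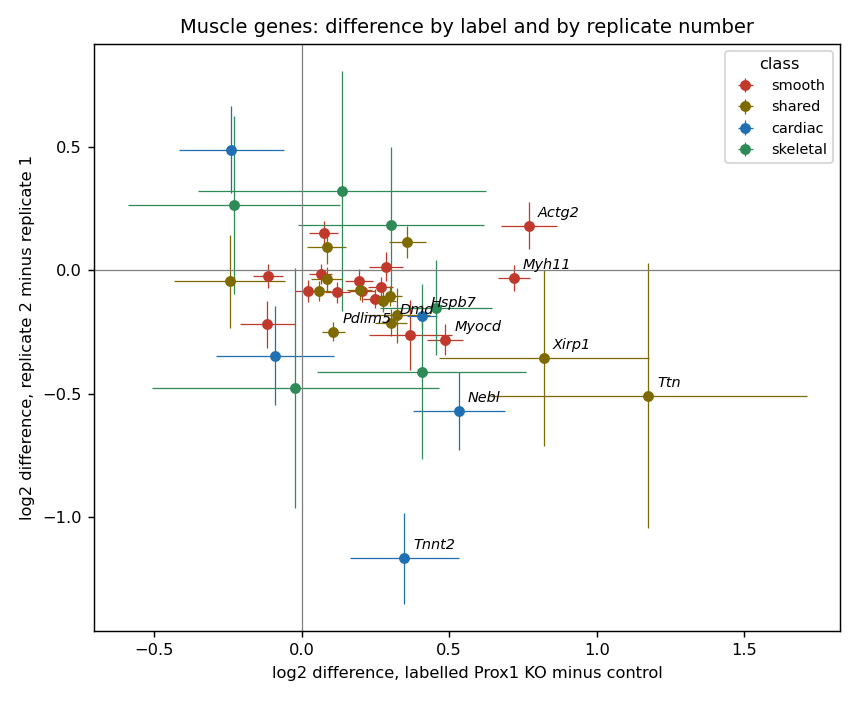
Log2 difference by label (horizontal axis, Prox1 KO minus control) against log2 difference by replicate number (vertical axis, 2 minus 1) for the 39 members, with SE bars from limma. The members that rose by label lie right of 0, while Tnnt2 lies lowest at -1.17 by replicate number.

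Other muscle genes outside the members, from lists chosen with earlier results of these data known, are read against the 5.09% of all genes tested that rose and the 6.29% that fell. Of 19 contraction signalling and actin anchoring genes 3 rose and 0 fell, with a median of 0.08: the kinase Rock2 (0.27, limma adjusted p = 0.000349), the focal adhesion protein Zyx (0.21, limma adjusted p = 0.00443) and the actin cross-linker Actn1 (0.14, limma adjusted p = 0.0428), of which DESeq2 called Rock2 and Zyx. Of 10 tested partners of dystrophin, Utrn rose (0.15, limma adjusted p = 0.0224), and Sgce (-0.22) and Sspn (-0.20) fell, none of them called by DESeq2. Of 22 tested further sarcomere and muscle calcium genes of 47 listed, 2 rose and 0 fell, Casq2 (0.66, limma adjusted p = 0.0476), a calcium store protein, and Myom1 (0.28, limma adjusted p = 0.0457), of the M-band, a share near that of all genes, and DESeq2 called neither (adjusted p = 0.688 and 0.523). None of the 10 tested muscle transcription regulators of 17 listed passed: Srf, the factor that binds the CArG box, was at 0.02 (limma adjusted p = 0.845) and its coactivator gene Mrtfa at 0.15 (limma adjusted p = 0.0507). Myod1, which starts skeletal muscle differentiation, had reads of 0 and 1 against 0 and 0, and Myf5 and Nkx2-5 had 0 in every library.

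Markers of the other cell types that such a culture could hold were set beside the muscle genes, where 5.09% of all genes tested rose and 6.29% fell. Of the 7 pericyte and vascular smooth muscle markers 3 rose (Notch3, Mcam and Cspg4) and 0 fell, and they summed to 31202 to 32586 normalized counts in the Prox1 KO-labelled libraries and 28893 to 30500 in the controls. DESeq2 called only Notch3 of these 3, and the groups overlapped for Cspg4. Of the 8 fibroblast markers 4 fell (Lum, Pdgfra, Dcn and Col3a1) and 0 rose, with Lum and Col3a1 also called by DESeq2 and the groups overlapping for Dcn and Col3a1. Of 6 tested hepatocyte markers 5 fell (Afp, Apoa1, Fgb, Serpina1a and Ttr), of which DESeq2 called Fgb and Ttr, and the list summed to 15359 to 16611 against 19626 to 19852. Of the 5 endothelial markers 2 could be tested: Kdr rose in limma and DESeq2, and Tek did not pass (log2 fold change -0.11, limma adjusted p = 0.825). The list's sums were 933 to 1063 against 623 to 751, of which Kdr alone held 938 and 770 against 564 and 509. Cldn5 was at 0. Skeletal myoblast, cardiomyocyte and macrophage markers had 0 calls in either direction, with sums of 56.7 to 59.2 against 60.7 to 105, of 82.1 to 98.7 against 94.7 to 103 and of 288 to 330 against 265 to 285, and Myf5, Nkx2-5 and Adgre1 were at 0. The part of these cells in the muscle result was not tested.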

How the data were processed

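Bulk RNA-seq of Prox1(fl/fl) MEFs on day 14 of 4in1 reprogramming was analysed. The 2 libraries titled creGFP were grouped as Prox1 KO and the 2 titled dcreGFP as controls. Per the labels, libraries followed the dUTP protocol, which marks strand. The tool that counted reads, its strand setting and its annotation are not given in the sources used here. The authors mapped reads with STAR to mm10 and deposited normalized counts, a signal per gene equal to the read count divided by the library's DESeq2 size factor. The authors' table of their own comparison (fold changes and p-values) was not used.

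The step between values gave size factors of 0.939 to 1.09, and 100% of positive values were whole multiples of it within 0.01, so reads were recovered (42469031 to 48524008 per library). Reads were not collapsed by molecular identifiers, so amplification adds to the counting error. Genes averaging 10 or more normalized counts (15809 of 55397) were tested on log2(normalized count + 1) with limma 3.58.1 in R 4.3.3, with a variance trend, a block for replicate number and Benjamini-Hochberg adjustment (threshold 0.05). Fold changes on this scale understate those of low genes. Each gene leaves 1 residual degree of freedom, so the spread is largely borrowed from other genes, and an exact permutation test of 2 against 2 cannot go below 0.333. The block follows the study's methods, which adjusted for the MEF line, though the labels do not say that a replicate number is a line. Same-numbered libraries deviated together (correlation 0.402), and Xist was high in both replicate 1 libraries (14495 and 13944 normalized counts) and near 0 in both replicate 2 libraries (4.89 and 1.06). P-values measure how far the 2 replicate pairs of these libraries disagree, with spread borrowed from other genes, since the block removes the replicate difference. Same-group libraries differed beyond sampling noise in 34.3% and 35.4% of genes, a spread that includes the replicate difference.

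The members and lists were chosen with earlier results of these data known, and nothing here is independent evidence of their direction. Values per library are given for members that passed, those with a log2 fold change of at least 0.5 and the highest per kilobase of each class. Tnnt2, Cald1, Tpm1 and the untested genes were added after their values were seen. Coordinates are from GENCODE on GRCm38, which 55137 gene identifiers matched, and promoters from RefSeq on GRCm38.p6. Alternatives were edgeR 4.0.16 and DESeq2 1.42.0 on the recovered reads, no block, other pseudocounts and filters, quantile normalization, a GC and length correction, and leaving out each replicate. The fitting was tested on simulated counts.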

Additional observations from a re-analysis of the deposited data

How the results depend on the processing

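The fit with the replicate number as a block rests on the pairing of the libraries. With no replicate block limma called 0 genes of all tested (1783 at an unadjusted p under 0.05), 0 members (14) and 0 genes of the other muscle lists (7). In this balanced design the block leaves each log2 fold change as it is, so this alternative could not change a sign. DESeq2 with the replicate block called 483 genes (222 higher, 261 lower), 393 genes between replicate numbers, 2 members between replicate numbers and 2 genes of the other muscle lists. edgeR with the block called the same 15 members. The GC and length correction with the block lost Nebl (adjusted p = 0.0520) and added Cald1 and Smtn, the latter lower (-0.13, adjusted p = 0.0328), and testing all genes above 0 added Cald1 (adjusted p = 0.0246). The cause of these losses and gains was not tested. The median log2 fold change of the members was 0.18 to 0.26 with each replicate left out, which leaves 1 pair and is a value with no test. With a replicate left out, the log2 fold change of these uncalled members changed sign: Cnn2 from -0.061 to 0.10, Pdlim7 from -0.0056 to 0.17, Tnnt2 from -0.16 to 0.85, Myl4 from -0.48 to 0.30, Myl1 from -0.43 to 0.39, Neb from -0.072 to 0.88, Sgca from -0.75 to 1.02 and Tnnt1 from -0.64 to 0.18. Myl4 was at 0.0028 under quantile normalization, and Myl1 at 0.0044 with a pseudocount of 10, 0.040 in edgeR and 0.010 with the GC and length correction. None of the 15 members that rose changed sign under any alternative. Leaving out a replicate could hardly change a called gene's sign, since all 1798 genes called in either direction had the same sign in both pairs. Depth limits most the 9 members between 10 and 100 normalized counts, which are the 6 tested skeletal genes, Ttn, Xirp1 and Pdlim3.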
